A study of Mus musculus with 27 samples.

Results

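Sugar, amino acid, peptide and monocarboxylate carriers are the proteins by which a cell takes up and releases its fuels and building blocks. They were described here as 107 of the 22524 genes counted, chosen by symbol alone as the protein-coding members of 11 solute carrier (Slc) families in the GENCODE vM21 annotation of the mouse genome build GRCm38. The amino acid families were Slc1 (7 members), Slc3 (2), Slc6 (20), Slc7 (16), Slc36 (4), Slc38 (11) and Slc43 (3). Sugar carriers came from Slc2 (12) and Slc5 (13), peptide carriers from Slc15 (5) and monocarboxylate carriers from Slc16 (14). Slc7a6os carries the symbol of its neighbour Slc7a6 and met the rule, but it is not a carrier, and Slc6a16 was not analysed here.

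In the small intestine the enterocyte moves nutrients in 2 steps. Sodium- or proton-driven carriers of the luminal membrane, such as Slc5a1 for glucose, Slc15a1 for di- and tripeptides and Slc6a19 for neutral amino acids, concentrate the products of digestion in the cell. Carriers of the basolateral membrane, such as Slc2a2 for sugars and the Slc3a2 heterodimers for amino acids, pass them on to the blood. Other members feed the cell itself, among them Slc2a1, Slc7a5 and Slc38a2, and these are found in most dividing cells.

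The study compared jejunal organoids with cell lines and asked whether the microbiota of the donor mouse leaves a trace in the culture. The 9 organoid cultures came from 9 male young adult C57BL/6 mice, 3 each from the germ-free facility (GF) and from the specific pathogen-free (SPF) facilities SR and SE, where the mice of a facility were littermates housed together, and were grown in Matrigel and Intesticult medium. m-ICc12 is an immortalised mouse small intestinal epithelial line, given here as 3 cultures, and mouse embryonic fibroblasts (MEFs) gave 3 untreated libraries. For every culture of organoids or m-ICc12 there was a library with the label untreated and another with the label TNF (tumour necrosis factor, 5 ng/mL for 8 h), which made 27 libraries in all. Comparisons of cell types and of donors used the sum of both libraries of a culture. No source states that the m-ICc12 and MEF replicates were grown separately, and their p-values then measure only the spread between these samples.

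Totals ranged from 6071103 to 43843615 counts on genes, so that 3 counts, used as a detection floor, stood for 0.0684 to 0.494 CPM (the count scaled by library size). In all 24 libraries that carry both, the treatment on the label was opposite to the code in the name of the deposited data. Nfkbia, Nfkb2, Tnfaip3 and Relb, which TNF is known to induce, were higher in the library labelled untreated in 9 of 9 organoid and 3 of 3 m-ICc12 cultures, against the labels. The name codes and these genes thus both mark the libraries labelled untreated as the treated ones. Treatment contrasts below are given by label, as labelled untreated minus labelled TNF. A positive value means more mRNA in the library where these TNF targets were higher. The organoids held all 7 epithelial markers, with a median of 1007 CPM for Epcam. In m-ICc12, 6 of the 7 reached 1 CPM in the median. Krt8 (1312 to 1473 CPM), Krt18 (451 to 572) and Krt20 (563 to 712) were high there, and Vil1 lay between 24.1 and 40.6 CPM. Epcam (2.72 to 6.98 CPM), Cdh1 (1.12 to 4.31) and Cdx2 (0.237 to 0.452) were low in m-ICc12. So were 4 of 5 enterocyte markers, which stayed under 1 CPM in the median. MEFs held collagen mRNA (Col1a1 median 2030 CPM), while the fibroblast marker Thy1 had no count and Dcn lay under 1 CPM. Vim, also of the fibroblast list, overlapped between m-ICc12 (2074 to 2819 CPM) and MEFs (2355 to 2594), against a median of 9.31 CPM in organoids. The others of that list were low in m-ICc12, with a median of 1.97 CPM for Col1a1 and under 1 CPM for Col1a2, Col3a1, Pdgfrb, Thy1 and Dcn.

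The promoters of 3 carriers that differed widely between the cell types are shown from RefSeq, 250 bases up to the annotated start, 5′ to 3′ on the strand of the gene. Slc5a1 (chr5:33103969-33104218, plus strand) and Slc3a1 (chr17:85028097-85028346, plus strand) had far more mRNA in organoids than in both other cell types, and Slc16a12 (chr19:34747329-34747578, minus strand) in m-ICc12. Capitals mark motifs of factors of intestinal epithelium.
Slc5a1: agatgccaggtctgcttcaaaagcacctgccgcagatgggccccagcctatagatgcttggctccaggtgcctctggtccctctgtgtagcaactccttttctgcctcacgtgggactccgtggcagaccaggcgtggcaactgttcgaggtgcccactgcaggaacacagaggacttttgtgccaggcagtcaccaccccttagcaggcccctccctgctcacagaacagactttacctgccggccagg
Slc3a1: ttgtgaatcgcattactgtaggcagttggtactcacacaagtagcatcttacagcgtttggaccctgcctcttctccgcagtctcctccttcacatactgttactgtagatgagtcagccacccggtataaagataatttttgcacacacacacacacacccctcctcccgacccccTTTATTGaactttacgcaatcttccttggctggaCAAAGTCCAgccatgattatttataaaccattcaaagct
Slc16a12: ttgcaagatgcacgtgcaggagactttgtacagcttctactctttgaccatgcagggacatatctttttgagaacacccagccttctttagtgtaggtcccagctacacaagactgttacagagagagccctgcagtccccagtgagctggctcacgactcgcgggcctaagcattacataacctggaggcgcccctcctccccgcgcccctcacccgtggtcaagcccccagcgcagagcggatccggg

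Slc3a1 held the letters CAAAGTNCA, searched for HNF4, from 39 bases before its start and TTTATNG, searched for CDX2, from 73 bases before it. It also held GTTAAT, a half-site searched for HNF1, at offset 1 from the start and so past the bases shown. A window of 250 bases before and 50 after the start was searched on both strands, and the motifs share no overlap in Slc3a1. Slc5a1 and Slc16a12 held none of these letters, nor did Slc15a1, whose promoter was also searched and is not shown. Over 32851 promoters of the RefSeq table, 1.41% held the HNF4 letters, 10.9% the CDX2 letters and 7.1% the HNF1 letters. Of 34 members higher in organoids than in both other cell types, 26 matched the table, of which 1 held the HNF4 letters, 2 the CDX2 letters and 5 the HNF1 letters. A match describes the letters only.

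Most carriers were read in organoids, and the luminal sugar carrier led them. The median over cultures reached 1 CPM for 60 of 107 members in organoids, for 45 in m-ICc12 and for 39 in MEFs, and 35 stayed under it in all 3 cell types. Scaled to exon length (RPKM, which is CPM per kilobase), Slc5a1 was the highest member in organoids with a median of 142 RPKM. It was followed by the glutamine carrier Slc1a5 (62.6 RPKM), the taurine carrier Slc6a6 (41.5), the cystine and dibasic amino acid subunit Slc3a1 (39.9), the heavy chain Slc3a2 (38.3) and the lactate carrier Slc16a1 (34.5). In m-ICc12 the same scale put Slc16a12 at 90.3 RPKM and Slc38a2 at 86.6, and in MEFs Slc7a5 stood at 112 RPKM. The lowest organoid culture for Slc5a1 (94.3 RPKM) still lay above the highest for Slc1a5 (84.9 RPKM), whereas Slc6a6, Slc3a1, Slc3a2 and Slc16a1 overlapped.

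**Figure D1:**
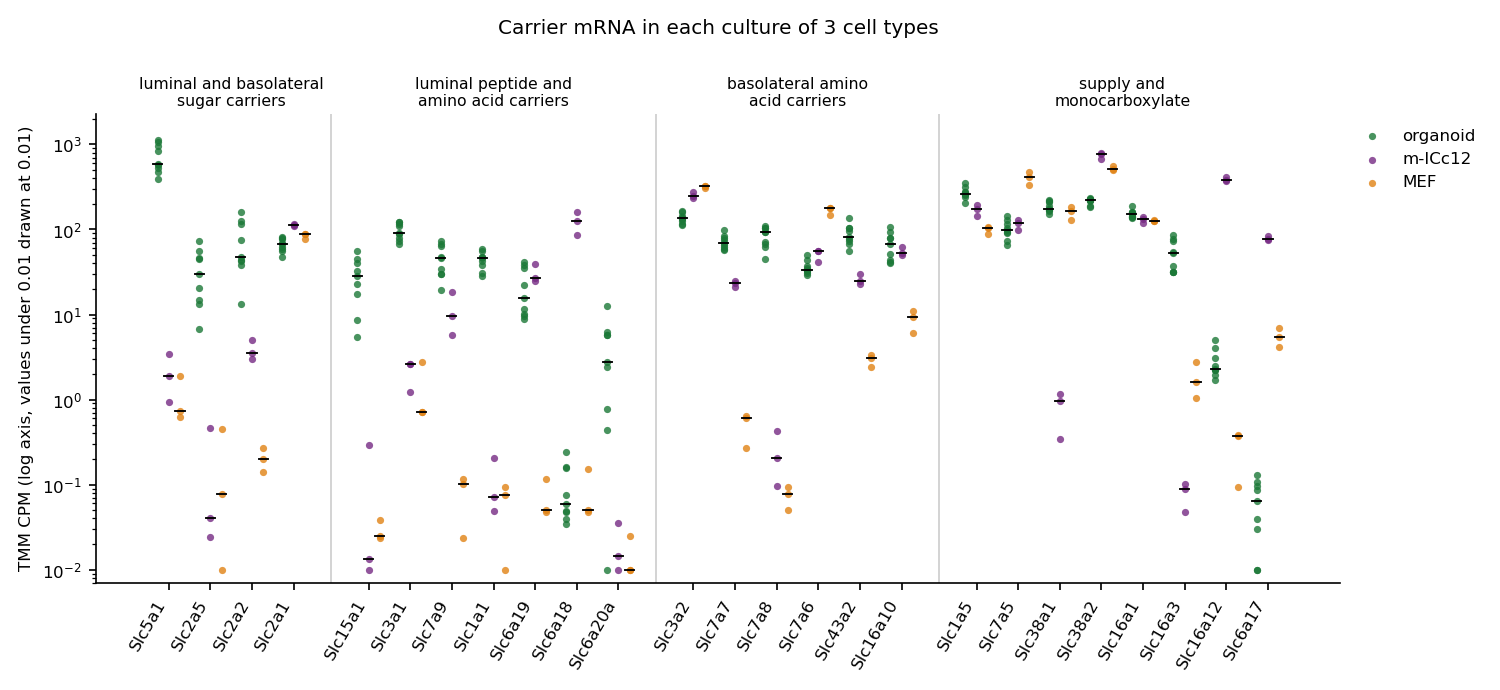
TMM-normalised CPM (log axis) of 25 carriers in 9 organoid cultures, 3 m-ICc12 cultures and 3 MEF libraries, as 1 point for each culture with a bar at the median, grouped by role. Slc5a1 lies between 387 and 1126 CPM in organoids and under 3.5 CPM in the other cells, whereas Slc16a12 and Slc6a18 stand high in m-ICc12 alone.

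The luminal sugar carriers separated the organoids from both other cell types. Slc5a1, the sodium-glucose cotransporter, lay between 387 and 1126 TMM-normalised CPM in organoids, with a median of 583. It was at 3.42, 1.88 and 0.949 CPM in the 3 m-ICc12 cultures and at 0.736, 0.630 and 1.88 CPM in the 3 MEF libraries, so the groups lay far apart. The log2 difference was 8.80 ± 0.52 (SE) against m-ICc12, with an adjusted p of 5.36e-10 in edgeR's quasi-likelihood test, and 9.51 ± 0.56 against MEFs, with an adjusted p of 3.34e-10. In bulk samples such as these, fewer cells of a type and less RNA per cell cannot be told apart. The fructose carrier Slc2a5 ranged from 6.67 to 72.5 CPM (median 30.1) in organoids and stayed under 0.5 CPM in each other culture. Its neighbour Slc2a7, 4.80 kb away on chromosome 4, reached a median of only 0.781 CPM. The fitted differences of Slc2a5 were 8.06 ± 1.06 and 7.54 ± 1.03 on the log2 scale, with adjusted p of 5.64e-06 and 7.62e-06 (edgeR).

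Glucose exit and general glucose supply behaved differently. Slc2a2, the low-affinity carrier of the basolateral membrane, lay between 13.4 and 159 CPM in organoids (median 47.3), at 3.56, 2.97 and 5.07 CPM in m-ICc12 and at 0.142, 0.201 and 0.269 CPM in MEFs. The 3 cell types did not overlap. Slc2a1, which serves basal glucose uptake in most cells, was lower in organoids, with 47.8 to 82.3 CPM against 117, 109 and 113 CPM in m-ICc12 (log2 difference -0.73 ± 0.14, adjusted p = 0.000225, edgeR). Against the MEF values of 88.5, 89.0 and 77.9 CPM it was not called (-0.31 ± 0.14, adjusted p = 0.0605, edgeR). The neuronal glucose carrier Slc2a3 was at 0 in 8 of 9 organoid cultures and was not tested. Slc5a9 and Slc5a11, carriers related to Slc5a1, had organoid medians of 21.2 and 8.60 CPM and no count in any MEF library, which makes the organoids at least 244-fold and 134-fold higher. Slc5a4a and Slc5a4b are close copies 36.5 kb apart on chromosome 10, and reads could be split between them. Slc5a4b had 5.72 CPM in the organoid median and no count in MEFs.

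mRNA of the peptide carrier was found in organoids and was at or near 0 in the other cells. Slc15a1, the proton-driven peptide carrier, ranged from 5.48 to 55.4 CPM (median 28.6) over the organoid cultures. It was at 0.291, 0.0135 and 0 CPM in m-ICc12 and at 0.0237, 0.0252 and 0.0384 CPM in MEFs, where all libraries together held 3 counts. The ratio to MEFs was 1029, with a 95% Poisson interval of 352 to 4988 that covers counting error only. Slc15a2, its high-affinity relative, had no count in 4 of 9 organoid cultures and none in m-ICc12 and MEFs, with a highest value of 6.5 CPM. The lysosomal Slc15a4 was shared, with medians of 29.6, 22.6 and 20.7 CPM in organoids, m-ICc12 and MEFs.

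Luminal amino acid carriers formed a mixed group. Of 9 members, 8 were tested against m-ICc12, of which 5 were higher and 2 lower in organoids, and all 7 tested against MEFs were higher in organoids. Over all genes, 31.2% were higher and 28.7% lower in organoids than in m-ICc12, and 35.5% were higher than in MEFs, so the 2 lower ones are near the share of all genes. Slc3a1 and its light chain Slc7a9 take up cystine and dibasic amino acids. Slc3a1 had 67.8 to 124 CPM (median 90.6) in organoids, against 2.60, 2.60 and 1.24 in m-ICc12 and 0.712, 0.705 and 2.76 in MEFs. Slc7a9 had 19.5 to 72.7 CPM (median 46.1) in organoids, 18.3, 9.57 and 5.67 CPM in m-ICc12 and at most 0.115 CPM in MEFs. Organoids and m-ICc12 did not overlap in Slc7a9, with the lowest organoid culture close above the highest m-ICc12 culture, and differed by 2.24 ± 0.41 on the log2 scale (adjusted p = 0.000166, edgeR). Slc1a1, which carries glutamate and aspartate, had 28.4 to 58.7 CPM in organoids and at most 0.204 CPM elsewhere. Its log2 difference to m-ICc12 was 9.37 ± 0.43 (adjusted p = 2.06e-11, edgeR).

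The neutral amino acid carriers Slc6a19 and Slc6a18 lie in tandem on the minus strand of chromosome 13, 1.72 kb apart, at 73679745 to 73704865 and 73661752 to 73678023. Slc6a19 had 8.93 to 41.2 CPM (median 15.6) in organoids and 24.8, 39.1 and 26.8 CPM in m-ICc12. These overlapped, and the difference was not called (-0.49 ± 0.44, adjusted p = 0.33, edgeR). Slc6a18, the carrier best known from the kidney, had 127, 160 and 85.5 CPM in m-ICc12, but at most 0.245 CPM in organoids and 0.153 CPM in MEFs. Its log2 difference of organoids to m-ICc12 was -10.27 ± 0.32 (adjusted p = 3.62e-13, edgeR). The imino acid carrier Slc6a20a had a median of 2.76 CPM in organoids with 0 in the SE culture Z911, and its close copy Slc6a20b had no count in any library. Slc36a1, a proton-driven carrier of small amino acids, was lower in organoids than in m-ICc12 (-0.66 ± 0.13, adjusted p = 0.000298, edgeR) and higher than in MEFs (0.57 ± 0.20, adjusted p = 0.0156). The call against MEFs rested on MEF replicate 3 (10.6 CPM, against 19.8 and 20.0) and was lost without it (0.32, adjusted p = 0.107, edgeR).

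Of 7 carriers of the basolateral membrane, 4 were higher and 2 lower in organoids in each comparison, and the shared heavy chain Slc3a2 was among the lower ones. The 2 lower are near the shares over all genes of 28.7% against m-ICc12 and 29.4% against MEFs, and 31.2% and 35.5% of all genes were higher. Slc7a8, Slc7a7 and Slc43a2 pass neutral, dibasic and large neutral amino acids, in this order, to the blood side. Slc7a8 had 44.7 to 110 CPM (median 92.2) in organoids, 0.204, 0.427 and 0.0961 CPM in m-ICc12 and at most 0.0949 CPM in MEFs. Slc7a7 followed a gradient without overlap, with a median of 70.3 CPM in organoids, values of 21.0, 23.3 and 25 CPM in m-ICc12 and 0.641, 0.604 and 0.269 CPM in MEFs. Slc43a2 had the same order, with 55.5 to 136 CPM in organoids, 23.0 to 29.6 CPM in m-ICc12 and 2.40 to 3.34 CPM in MEFs. Slc16a10, for aromatic amino acids, did not differ between organoids and m-ICc12 beyond its spread (0.44 ± 0.27, adjusted p = 0.153, edgeR). The heavy chain Slc3a2, which pairs with several of these, was lower in organoids (113 to 166 CPM) than in m-ICc12 (236, 273 and 248) and MEFs (304, 322 and 320).

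Of 8 carriers that supply growing cells, 4 were lower, 1 was higher and 3 were not called in organoids against MEFs, where 29.4% of all genes were lower and 35.5% higher. Against m-ICc12, 3 were higher, 1 was lower and 4 were not called, where 31.2% of all genes were higher and 28.7% lower. Slc7a5, the large neutral amino acid carrier, had 66.5 to 142 CPM in organoids, 129, 99.1 and 118 CPM in m-ICc12 and 416, 478 and 330 CPM in MEFs. The organoids and m-ICc12 overlapped, and both lay under the MEFs, organoids by 1.97 on the log2 scale (-1.97 ± 0.18, adjusted p = 6.41e-08, edgeR). Slc38a2, the stress-induced glutamine and alanine carrier, was lowest in organoids, with 186 to 233 CPM, against 786, 765 and 678 CPM in m-ICc12 and 510, 550 and 501 CPM in MEFs. Slc38a1, its relative 44.5 kb away on chromosome 15, had 154 to 220 CPM in organoids and 166, 182 and 129 CPM in MEFs, which overlapped, but only 1.18, 0.955 and 0.348 CPM in m-ICc12. Organoids were 8.08 ± 0.28 higher than m-ICc12 on the log2 scale (adjusted p = 1.07e-12, edgeR). Slc1a5 was the member of this group that was higher in organoids than in both, with 204 to 354 CPM against 143 to 193 CPM in m-ICc12 and 89.5 to 108 CPM in MEFs.

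The cystine carrier Slc7a11 was higher in organoids than in m-ICc12 (1.55 ± 0.28, adjusted p = 0.000133, edgeR), with 18 to 39.2 CPM against 13.6, 9.05 and 7.15. Against the MEF values of 49.7, 55.7 and 25.3 CPM it missed the threshold (-0.55 ± 0.25, adjusted p = 0.057, edgeR), and it passed without MEF replicate 3 (-0.83, adjusted p = 0.00792) or without any of 4 organoid cultures (-0.60 to -0.62 without Z909, Z911, Z913 or Z917) and in DESeq2 (-0.61, adjusted p = 0.0257). The arginine carrier Slc7a1 was close to level, with 160 to 205 CPM in organoids and 216, 186 and 202 CPM in m-ICc12. It lay 0.48 under the MEFs (log2 -0.48 ± 0.11, adjusted p = 0.000727, edgeR), short of the fold required, and reached -0.50 without organoid culture Z918, -0.65 without MEF replicate 3 and -0.54 in DESeq2.

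Lactate carriers also divided the cell types. Slc16a1 was shared, with 135 to 186 CPM in organoids, 118 to 141 in m-ICc12 and 126 to 131 in MEFs, and its differences stayed under the fold required. Slc16a3, the lactate exporter of glycolytic cells, had 31.2 to 87.2 CPM in organoids, at most 0.102 CPM in m-ICc12 and 1.59, 1.06 and 2.76 CPM in MEFs. The sodium-coupled Slc5a8 and Slc5a12 had organoid medians of 36.2 and 5.15 CPM, and m-ICc12 held no count of Slc5a12, which makes organoids at least 41.4-fold higher. Slc6a4, the serotonin carrier, had 29.7 to 47.5 CPM in organoids and at most 2.29 CPM elsewhere. Slc6a6 had medians of 351, 388 and 277 CPM in organoids, m-ICc12 and MEFs, with overlapping ranges, and was called in none of the 3 comparisons.

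**Figure D2:**
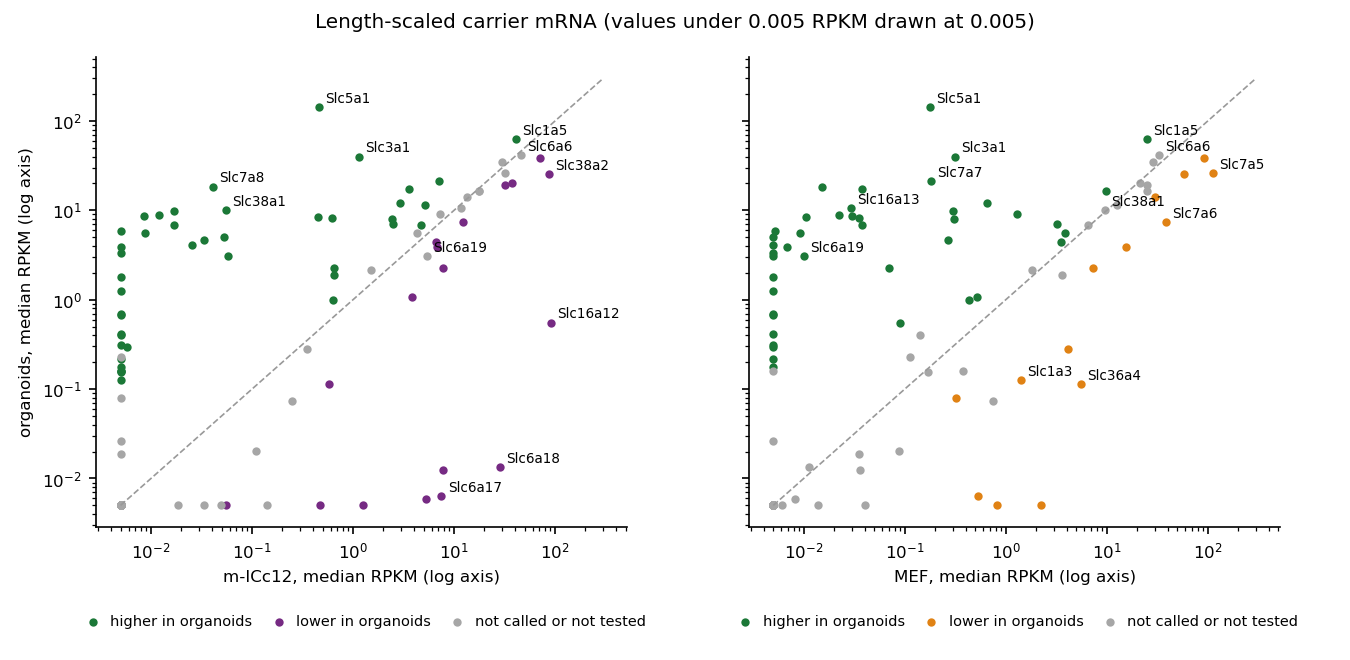
Median RPKM (log axes) of 107 members in organoids against m-ICc12 (left) and MEFs (right), where points above the dashed line of equal level are higher in organoids and colours give the calls of the test. Slc5a1 stands highest at 142 RPKM in organoids, while Slc16a12, Slc6a18 and Slc6a17 lie far below the line against m-ICc12.

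Counted over the set, 61 of 77 members tested were called between organoids and m-ICc12, at an adjusted p under 0.05 (edgeR) and a log2 difference of at least 0.5, where 59.9% of all genes tested were called. Of these, 43 were higher in organoids (55.8% of members tested, against 31.2% of all genes) and 18 lower (23.4%, against 28.7%). At an unadjusted p of 0.05, 62 members passed (80.5%, against 72.7% of all genes). The median log2 difference was 1.70 over the members and 0.04 over all genes. Between organoids and MEFs, 56 of 73 were called, beside 64.9% of all genes, 42 of them higher in organoids (57.5%, against 35.5%) and 14 lower (19.2%, against 29.4%), with a median of 1.49 against 0.08 over all genes. At an unadjusted p of 0.05, 62 passed (84.9%, against 76% of all genes). In all, 34 members were higher in organoids than in both other cell types and 7 were lower than in both. The 7 were Slc3a2, Slc5a3, Slc6a17, Slc6a9, Slc7a6, Slc36a4 and Slc38a2. The share of all genes called in the same direction in both comparisons is not given here, so neither joint count has a background beside it. Both comparisons share the organoid cultures. A gene could enter a test through 1 group alone, and a member without counts in the other group could be called in 1 direction only. A group was at 0 in 9 members and 494 of all genes against m-ICc12, and in 8 members and 542 of all genes against MEFs.

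**Figure D3:**
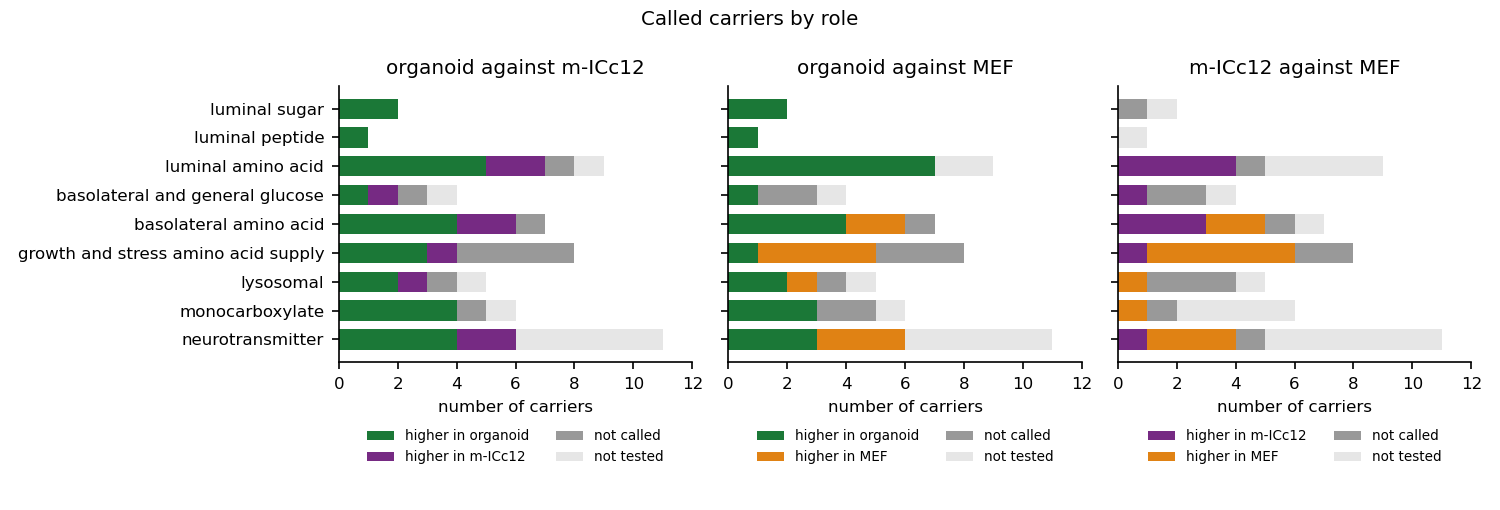
Number of carriers called in each direction, not called or not tested, in 9 roles and for the 3 pairs of cell types. The luminal sugar and peptide carriers are all higher in organoids, and the supply group holds 4 members higher in MEFs than in organoids.

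A second set of carriers had more mRNA in m-ICc12 than in both other cell types, some of them at low levels. Slc16a12, a creatine and monocarboxylate carrier, had 377, 417 and 367 CPM in m-ICc12, against 1.70 to 5.05 CPM in organoids and at most 0.384 CPM in MEFs. The log2 difference of organoids to m-ICc12 was -7.0 ± 0.28 (adjusted p = 4.16e-12, edgeR). The neuronal amino acid carrier Slc6a17 had 75.5, 82.7 and 77.2 CPM in m-ICc12, at most 0.129 CPM in organoids and 5.48, 6.88 and 4.18 CPM in MEFs. Slc6a13 and Slc6a12, carriers of GABA and betaine, are neighbours 5.34 kb apart on chromosome 6. Slc6a13 had 15.4, 22.4 and 11.1 CPM in m-ICc12 and at most 0.227 CPM elsewhere. Slc6a12 had 0.571, 2.26 and 1.45 CPM in m-ICc12 and no count in any organoid library, so m-ICc12 was at least 12-fold higher. The glutamine carrier Slc38a3 had 48.8, 40.9 and 17.6 CPM in m-ICc12, and in organoids it passed 0.5 CPM in the SR culture Z908 alone, at 2.68 CPM. Slc16a14 had 3.57, 4.48 and 4.25 CPM in m-ICc12 and 1 count over all organoid libraries. Between m-ICc12 and MEFs, 42 of 59 members were called, beside 55.1% of all genes, 23 higher in m-ICc12 (39.0%, against 28.5%) and 19 lower (32.2%, against 26.7%). At an unadjusted p of 0.05, 46 passed (78.0%, against 65.4% of all genes). A group was at 0 in 6 of the 59 members and in 556 of all genes, which could be called in 1 direction only.

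Of 12 genes that mark kidney tubule, 7 had a median of at least 1 CPM in m-ICc12, 4 in organoids and 3 in MEFs. Their summed level lay between 1316 and 1545 CPM in m-ICc12, 614 and 786 in organoids and 285 and 374 in MEFs. The sum in organoids and MEFs was mostly Aqp1 (medians of 553 and 326 CPM, against 7.38 in m-ICc12). Pax8 (291 CPM), Cdh16 (723), Lrp2 (205) and Pax2 (63.1) were the medians in m-ICc12, against 3.49, 0.424, 0.165 and 0.0326 CPM in organoids. Cubn, like Aqp1, went the other way, with a median of 109 CPM in organoids against 2.23 CPM in m-ICc12. Umod, Slc34a1, Slc22a6, Slc12a1 and Aqp2 stayed under 1 CPM in the median of each cell type. The part of these genes in the levels of Slc6a18, Slc6a13, Slc38a3 and Slc16a12 was not tested.

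In MEFs, Slc7a6, a light chain for dibasic amino acids, had 177, 181 and 150 CPM, against 29.4 to 50.5 in organoids. Its neighbour on the opposite strand, Slc7a6os, 2.01 kb away on chromosome 8, did not follow it, with medians of 53.2 CPM in MEFs and 48.2 CPM in organoids. The lysosomal carrier Slc36a4 had 42.8, 36 and 27.4 CPM in MEFs and at most 2.03 CPM in organoids. The glutamate carriers Slc1a3 (13.8, 12 and 7.21 CPM) and Slc1a6 (5.41, 4.76 and 3.41 CPM) were low elsewhere: Slc1a3 had 1 count over all m-ICc12 libraries and at most 2.13 CPM in organoids, and Slc1a6 had 1 count over all organoid libraries and none in m-ICc12.

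Other genes of the pathway were taken from fixed lists. All 9 luminal hydrolases tested, which release sugars and amino acids for the carriers, were higher in organoids than in m-ICc12 and than in MEFs, among them sucrase-isomaltase (Sis, log2 8.90 ± 0.56, adjusted p = 1.06e-09) and dipeptidyl peptidase 4 (Dpp4, 8.70 ± 0.32, adjusted p = 1.63e-12) against m-ICc12 in edgeR. Of all genes, 31.2% and 35.5% were higher in these comparisons. Of 10 genes of the amino acid response that Atf4 drives, 7 were lower and 1 was higher in organoids than in m-ICc12, and 7 were lower and 0 higher than in MEFs, where 28.7% and 29.4% of all genes were lower, such as Asns (-1.70 ± 0.11 against MEFs, adjusted p = 1.02e-09, edgeR).

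The spread among the organoid cultures differed widely from carrier to carrier. Over the 47 members with a mean of at least 10 CPM, the coefficient of variation over 9 cultures had a median of 21.3% and ran from 7.36% for Slc7a1 to 73.4% for Slc7a15, while over 9261 genes at that level the median was 13.5%. The highest-to-lowest ratio was 1.25 for Slc38a2, 1.28 for Slc7a1 and 1.38 for Slc16a1, but other supply carriers spread further, with 2.14 for Slc7a5 and 2.17 for Slc7a11. Among the luminal carriers it was 1.59 for Slc36a1, 1.82 for Slc3a1 and 2.07 for Slc1a1. Slc2a2 had a ratio of 11.9, Slc2a5 of 10.9, Slc15a1 of 10.1 and Slc5a1 of 2.91. The GF culture Z919 was the lowest for Slc5a1, Slc2a2, Slc15a1 and Slc7a9, and the SE culture Z913 the highest for Slc5a1 and Slc2a2.

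Enterocyte markers moved with these carriers. The mean log2 CPM of Alpi, Fabp1, Fabp2, Apoa1 and Apoa4 lay between 5.35 and 6.08 in 5 cultures and between 7.0 and 7.73 in 4, with no culture between, and each of these sets had cultures of all 3 facilities. Over the 9 cultures, Slc5a1 followed it with Pearson's r = 0.985 (exact permutation p = 1.38e-05, adjusted p = 0.000124 over the 9 relations computed) and Spearman's rho = 0.967 (p = 0.000165, adjusted p = 0.000744). Slc2a5 had r = 0.924 and rho = 0.967, Slc2a2 r = 0.915 and rho = 0.9, Slc6a19 r = 0.849 and rho = 0.783, Slc7a9 r = 0.847 and rho = 0.850, and Slc15a1 r = 0.736 and rho = 0.750, with exact permutation p adjusted over the 9 relations of at most 0.0291 for r and 0.0328 for rho. Slc6a20a (r = 0.668, rho = 0.850), Slc3a1 (r = 0.667, rho = 0.7) and Slc1a1 (r = 0.106, rho = 0.133) missed the threshold for r. For rho, Slc6a20a and Slc3a1 passed (adjusted exact permutation p = 0.0109 and 0.0487). In the libraries of each label alone, Slc15a1 missed the threshold for r and for rho. Its adjusted exact permutation p for r was 0.0562 for those labelled untreated and 0.0576 for those labelled TNF. For r, Slc6a20a (0.0618) and Slc3a1 (0.162) also missed in those labelled untreated, but passed in those labelled TNF (0.0178 and 0.0263). For rho, Slc3a1 missed under both labels (0.281 untreated, 0.0553 TNF), and Slc6a19 (0.0757) and Slc7a9 (0.0553) missed in those labelled TNF. Without the cultures Z913 and Z918, farthest from the median, r was 0.974 for Slc5a1, 0.892 for Slc2a5 and 0.851 for Slc2a2 and passed, but with 7 cultures the adjusted p no longer passed for Slc6a19 (r = 0.891), Slc7a9 (r = 0.782) and Slc15a1 (r = 0.679), whose r was higher for Slc6a19 and lower for the others. For rho, only Slc5a1 and Slc2a5 passed without Z913 and Z918 (adjusted exact permutation p = 0.0304 and 0.025), and Slc2a2 did not (0.0864). The relation was not tested within the sets of 5 and 4 cultures on either side of the gap. Each facility has 3 cultures, too few for a value within it.

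**Figure D4:**
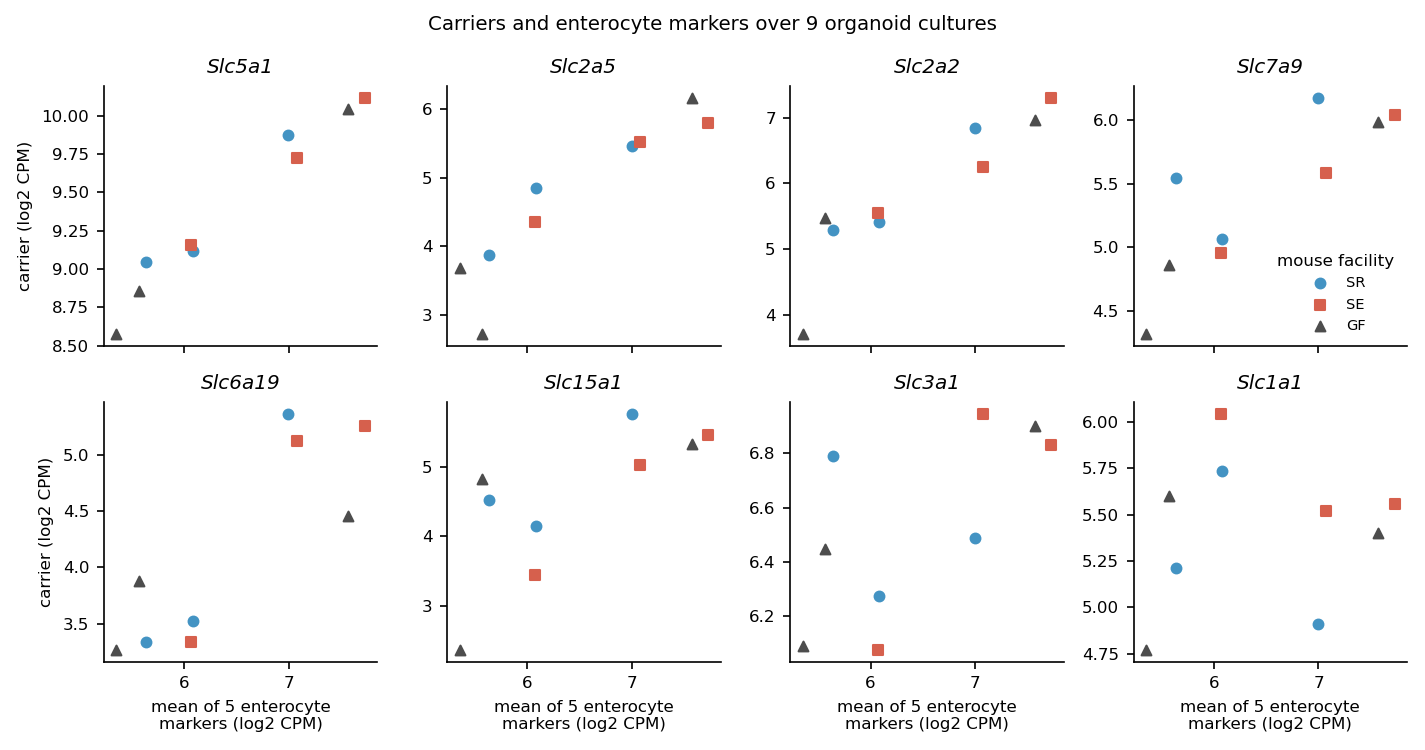
Level of 8 carriers against the mean of 5 enterocyte markers, both as log2 CPM, with 1 point for each of 9 organoid cultures and a symbol for the facility of the mouse. Slc5a1 rises along the whole range (r = 0.985), whereas Slc1a1 does not (r = 0.106).

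TNF was compared within the organoids over 67 members tested. No member was called in edgeR, beside 121 of 12104 genes (1% of those tested; 0.934% were higher in the libraries labelled untreated and 0.0661% lower), and 9 members passed an unadjusted p of 0.05 (13.4%, against 8.86% of all genes). Slc5a1 lay close to level, with medians of 609 CPM in the libraries labelled untreated and 592 CPM in those labelled TNF. Its log2 difference was 0.01 ± 0.21. Slc2a2 differed by -0.13 ± 0.39, Slc15a1 by 0.13 ± 0.40 and Slc3a1 by -0.07 ± 0.14. The standard errors of Slc2a2 and Slc15a1 are too wide to show that these were level. Among other absorptive carriers, Slc7a8 differed by -0.40 ± 0.18, Slc6a19 by -0.38 ± 0.36 and Slc1a1 by 0.49 ± 0.16. Of 25 carriers fixed for every comparison, 24 were tested, and their log2 differences ran from -0.40 for Slc7a8 to 0.78 for Slc6a20a.

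The 5 members of smallest p moved in most cultures by small amounts. Slc16a6, a monocarboxylate carrier, had 44.9 to 98.9 CPM (median 66.9) in the libraries labelled untreated and 41.2 to 64.6 CPM (median 47.2) in those labelled TNF. It was higher in the former in 9 of 9 cultures, though the ranges overlapped, with 0.46 ± 0.12 on the log2 scale (adjusted p = 0.0614, edgeR). Slc6a6 was lower in the libraries labelled untreated in 9 of 9 cultures, with a median of 293 against 403 CPM (-0.30 ± 0.08, adjusted p = 0.0827, edgeR). Slc6a4 was lower there in 8 of 9, with a median of 33.7 against 44.1 CPM (-0.54 ± 0.16, adjusted p = 0.104, edgeR). Slc1a1 was higher there in 8 of 9, with 52.2 against 39.7 CPM (0.49 ± 0.16, adjusted p = 0.202, edgeR). The vitamin carrier Slc5a6, for biotin and pantothenate, was lower there in 8 of 9, with 21.8 against 30.7 CPM (-0.51 ± 0.17, adjusted p = 0.211, edgeR). A fit that pairs both libraries of each mouse (the mouse as a replicate block) called Slc6a4 (-0.56, adjusted p = 0.0207) and Slc5a6 (-0.51, adjusted p = 0.0477), beside 1.41% of all genes. At an unadjusted p of 0.05, 16 of 67 members passed in this paired fit, beside 1674 of 12104 genes. In it Slc6a6 (adjusted p = 0.000137), Slc16a6 (0.00583) and Slc1a1 (0.0126) also passed the threshold on p, but not the fold required, at -0.30, 0.44 and 0.46. DESeq2 called Slc6a4 (adjusted p = 0.0457), beside 1.15% of all genes. Without the SE culture Z911, edgeR called Slc16a6 (0.52, adjusted p = 0.0389) and Slc38a4, which was not tested with all cultures and had medians of 0.220 and 0 CPM.

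**Figure D5:**
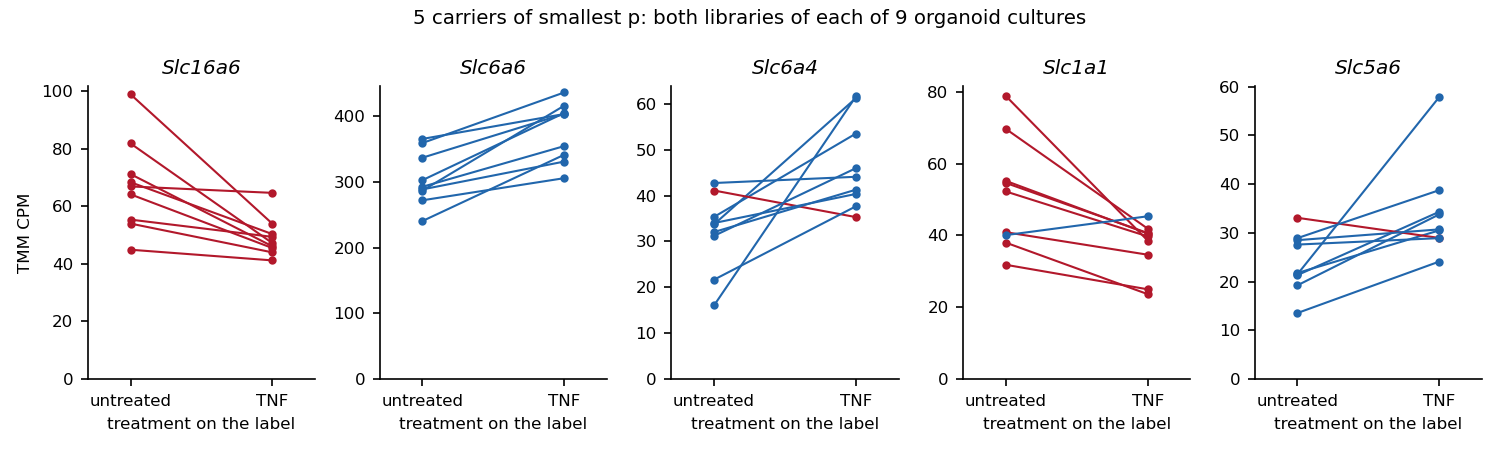
TMM CPM of the 5 members of smallest p in both libraries of 9 organoid cultures, with lines joining the libraries of a culture, red where the library labelled untreated is higher and blue where it is lower. Slc16a6 falls from left to right in 9 of 9 cultures and Slc6a6 rises in 9 of 9.

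In m-ICc12, 0 of 48 members tested were called in edgeR, beside 0.11% of all genes (0.0927% higher in the libraries labelled untreated, 0.0169% lower and 0.0506% with the replicate block), and 4 passed an unadjusted p of 0.05 (8.33%, against 4.69% of all genes). Slc43a2 had 33.9, 36.4 and 27.5 CPM in the libraries labelled untreated of cultures M1, M2 and M3 and 12.2, 22.8 and 21.5 CPM in those labelled TNF, without overlap (0.76 ± 0.27, adjusted p = 0.916, edgeR). Slc38a7, a lysosomal glutamine and asparagine carrier, had 16.3, 18.9 and 12.8 CPM against 34, 19.8 and 23.4 CPM, also without overlap (-0.69 ± 0.29, adjusted p = 0.996). Slc38a3 had 38.9, 26.5 and 9.13 CPM against 58.7, 55.2 and 26 CPM. Slc5a11 had 0.322, 0 and 0.865 CPM against 0 in the 3 libraries labelled TNF. The inositol carrier Slc5a3 had 62.8, 91.9 and 67.9 CPM against 156, 79.4 and 81.3 CPM, and it alone was called when M2 was left out (-0.88, adjusted p = 0.0365, edgeR). Of the 25 fixed carriers, 18 were tested and ran from -0.87 for Slc5a1 to 0.76 for Slc43a2. The library of M1 labelled TNF was the shallowest of all, with 6071103 counts. As a test of the difference itself, a response that differed between m-ICc12 and organoids was called in 0 of 75 members (edgeR interaction, beside 0.159% of all genes). It was taken as m-ICc12 minus organoids, with each response as labelled untreated minus labelled TNF. Of all genes, 0.0303% were higher and 0.129% lower. At an unadjusted p of 0.05, 6 members passed (8%, against 6.5% of all genes). Slc38a3 had the smallest p (-5.93 ± 1.76, adjusted p = 0.307) and passed with the replicate block (-5.26, adjusted p = 0.0337, beside 0.781% of all genes). Its organoid medians by label were 0.0794 and 0 CPM, under the floor. The organoid side was carried by the SR culture Z908, with 5.36 CPM in the library labelled untreated and 0 in the other, while the other organoid libraries had at most 0.786 CPM, and without Z908 the value was -3.94 (adjusted p = 0.449, no block). The fit with the block was not run without it. The others of smallest p were Slc38a7 (-0.83), Slc16a12 (-1.22), Slc16a1 (-0.37) and Slc5a11, for which no value is given because a group was at 0.

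By origin of the mouse, Slc7a15 had the smallest p among the carriers. Between 3 GF and 6 SPF cultures, 0 of 72 members tested were called in edgeR, beside 0.054% of all genes (0.0463% higher in GF and 0.00771% lower), and 3 passed an unadjusted p of 0.05 (4.17%, against 4.1% of all genes). Slc7a15, a member of the amino acid carrier family Slc7, had 6.78, 6.31 and 2.40 CPM in GF cultures Z917, Z918 and Z919, 7.87 to 23.9 CPM in the SR and 10.4 to 30.9 CPM in the SE cultures. The GF cultures lay under all SPF cultures, with -1.70 ± 0.44 on the log2 scale (adjusted p = 0.81, edgeR), and DESeq2 called it (-1.69, adjusted p = 0.00747) beside 0.185% of all genes. Slc6a4 had 29.7 to 37.2 CPM in GF and 38.2 to 47.5 CPM in SPF cultures, without overlap (-0.33 ± 0.14, adjusted p = 0.999, edgeR). Slc6a7, a proline carrier, had 6.37 to 14.4 CPM in GF cultures and 9.83 to 19.2 CPM in SPF cultures, which overlapped (-0.71 ± 0.30). Slc38a2 (-0.18 ± 0.09) and Slc1a5 (-0.26 ± 0.13) completed the 5 of smallest p. The main glucose carrier Slc5a1 differed by -0.26 ± 0.30 and Slc2a2 by -0.39 ± 0.56, and 24 of the 25 fixed carriers ran from -0.66 for Slc6a19 to 0.30 for Slc6a20a. Between SR and SE, 0 of 71 were called in edgeR, beside 0.00775% of all genes, and 1 passed an unadjusted p of 0.05 (1.41%, against 4.03% of all genes), namely Slc38a1, with 154 to 174 CPM in SR and 175 to 220 CPM in SE cultures (-0.27 ± 0.12). Slc7a6 (-0.36), Slc1a1 (-0.40), Slc5a4b (-0.93) and Slc16a8, which stayed under 2 CPM, came next, and the same 24 ran from -0.52 for Slc2a2 to 0.15 for Slc43a2. A difference between GF and SPF organoids in the response to TNF was called in 0 of 70 members and in 0 of 12640 genes (0% called, edgeR interaction). It was taken as GF minus SPF, with each response as labelled untreated minus labelled TNF. At an unadjusted p of 0.05, 1 member passed (1.43%, against 2.56% of all genes), which was Slc7a15 (-1.59 ± 0.75), and Slc16a5 (0.83), Slc7a1 (0.25) and the low Slc2a6 and Slc2a10 followed. Over the 24, this difference ran from -0.68 for Slc6a20a to 0.30 for Slc7a11.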

How the data were processed

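RNA was sequenced from 27 libraries with a poly-A selecting TruSeq kit. The deposited values are the counts per gene made by the authors, as whole numbers that were not normalized. All libraries list 22524 genes. The paper names Trimmomatic, STAR on GRCm38 and GenomicRanges, while the submitters' processing notes name STAR 2.5.4b, bcl2fastq 2.19 and featureCounts. The use of strand and the handling of reads that align to several places are not given in the sources used here, which matters for close copies such as Slc5a4a and Slc5a4b.

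Groups came from the sample labels. The counts of both libraries of a culture were summed for comparisons of cell types and donors, so that these do not rest on the treatment label. Levels are CPM scaled by TMM over all libraries, averaged over the libraries of a culture. Genes reaching 10 counts in 50% or more of the units of a group were tested with edgeR 4.0.16 in R 4.3.3 (quasi-likelihood F-test, no covariate, Benjamini-Hochberg over all genes tested). A call required an adjusted p under 0.05 and, outside interactions, a log2 difference of at least 0.5. A detection floor of 3 counts was used. Correlations over cultures took log2 CPM (prior count 2) and two-sided exact permutation tests (scipy 1.17.1). The organoid libraries are paired by the mouse in their titles, and their deviations from the group mean correlated with a mean r of 0.154. Those of m-ICc12 share a culture number (mean r 0.0306).

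The members, role groups, markers and other lists were chosen with earlier results of these data known. The genes named are 25 carriers given in every comparison of cell types where measured, the 10 called members of smallest p in each direction of those comparisons, up to 5 of smallest p in the others, and members at the extremes of a range. Close relatives and genome neighbours of these, and Slc15a4, Slc5a8, Slc6a12 and Slc16a14, were added after their values were seen. Alternatives were DESeq2 1.42.0, all genes with at least 1 count, 1 label only, all units in 1 fit, the facility as a covariate, the replicate block and leaving out each culture in turn. The scripts were tested on simulated data with genes changed by 1 on the log2 scale. There the interaction fits recovered 23% of these genes (m-ICc12 and organoids) and 26% (GF and SPF). A missing call in an interaction therefore does not show an equal response. By adjusted p alone, the fits of treatment recovered 76.5% (organoids) and 49.5% (m-ICc12), and those of origin 55.5% (GF and SPF) and 52.5% (SR and SE). A missing call in these does not show equal levels either. Some genes of these lists are not reported here.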

Additional observations from a re-analysis of the deposited data

Results flagged for a closer look

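Of 46 named carriers with a mean of at least 1 CPM in organoids, 4 had 1 culture far from the other 8 by the size of its gap (Dixon's ratio over 9 cultures, log2 CPM of the summed counts). Chance flags about 1 in 20 such groups. In the SE culture Z911, Slc16a1 stood at 7.60 (others 7.07 to 7.33), Slc16a12 at 2.72 (others 0.80 to 1.75) and Slc7a6os at 6.04 (others 5.34 to 5.61), each above the rest. In the GF culture Z919, Slc5a6 stood at 4.31, under the others at 4.71 to 5.07. Without Z911, the difference of organoids to m-ICc12 was 0.28 for Slc16a1 and -7.24 for Slc16a12 on the log2 scale, and neither changed its call.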

How the results depend on the processing

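The counts of members called ranged from 61 to 65 (organoids and m-ICc12), 54 to 58 (organoids and MEFs) and 38 to 44 (m-ICc12 and MEFs) over the fits without a culture. Where no member was called, single calls appeared in some fits. In organoids labelled untreated against TNF, DESeq2 called 1, the replicate block 2 and the fits without a culture 0 to 2 (2 without Z911). In m-ICc12, the fits without a culture called 0 to 1 (1 without M2). The interaction of m-ICc12 and organoids gave 1 with the replicate block, and GF against SPF gave 1 with DESeq2. The block changed no other count of calls, and as M1 to M3 and R1 to R3 share only numbers (mean correlation -0.00805), their block of 42 calls is no pairing. Of the relations to enterocyte markers, 6 passed for Pearson's r over 9 cultures and 3 without the 2 cultures farthest from the median. Slc6a6 was near 0 between organoids and m-ICc12 and ranged from -0.0648 to 0.0435 over the fits without a culture, with a reversed sign in 3 of these. Slc16a1 reversed to 0.18 between m-ICc12 and MEFs in libraries labelled TNF. Over named genes and alternatives, 1952 values kept direction and call, 23 gained a call, 2 lost it and 4 reversed. The causes were not tested. The depth of the shallowest library limits statements under 0.494 CPM.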
